A study of Homo sapiens with 3 samples.

Results

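TGF-β, BMP and activin signaling was examined in the ovarian cancer line SKOV-3 through 50 genes that encode its ligands, their extracellular partners, the receptors, the SMADs and the regulators and targets of the SMADs. The members were named by gene symbol, and 49 of the 50 had a probe set that carried that symbol alone, 148 probe sets in all out of 54675 on the array and 49 of 19775 measured genes. BMPR1A, a type I BMP receptor, had none and was not analysed here. The cells were transduced with lentivirus and stably expressed G9a shRNA1, G9a shRNA2 or Luc shRNA, a luciferase hairpin that served as the control, after 2 weeks of puromycin selection that all 3 received. G9a, encoded by EHMT2, methylates lysine 9 of histone H3. Each condition was measured on 1 array, so no value has a replicate error, no comparison has a replicated test, and both comparisons share the Luc shRNA array. The number of arrays limits the precision.

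Ligands of this family are secreted as dimers and bring together type I and type II receptor kinases at the cell surface. TGF-β and activin signals are passed on mainly by SMAD2 and SMAD3, and BMP signals by SMAD1, SMAD5 and SMAD9. Each of these partners with SMAD4 and acts with it in the nucleus. Latent TGF-β binding proteins hold TGF-β in the matrix, follistatins and gremlin trap ligands, and SMAD6, SMAD7 and the SMURF ubiquitin ligases dampen the signal. In epithelial cancers the pathway is known both for restraining growth and for promoting invasion and matrix production.

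The arrays were first checked. EHMT2 had a MAS5 signal, the linear brightness of a probe set, of 182 on the control array, 29.7 under G9a shRNA1 and 79.2 under G9a shRNA2. On the log2 scale it was thus -2.62 and -1.20 from the control, and its second probe set past the median gave -0.21 and -0.75. Of 9 markers of SKOV-3 and ovarian carcinoma, 6 were past the 75th percentile of all signals (89.7), ERBB2, KRT8, KRT18 and PAX8 among them. None of 6 leukocyte and none of 5 endothelial markers was, and of 7 fibroblast markers COL1A1 alone was; the summed signal of these lists across the arrays ran from 52.3 to 66.2, from 27.3 to 48.9 and from 119 to 261, the last highest with Luc shRNA. PECAM1, CD79A, DCN, COL1A2 and THY1 lay above the median but under that percentile, and the others of these 3 lists were under the median. Of the SKOV-3 and ovarian carcinoma markers, KRT19 and WT1 lay between the median and that percentile, and MSLN was under the median. Among the 8 of that list past the median, 6 were higher with both shRNAs and 1 was lower. The furthest from the control were KRT19 (1.90 and 1.84 on the log2 scale) and EPCAM (1.06 and 0.98). The ratio of 3′ to 5′ signal of the β-actin control probe sets was 3.68 on the control array against 1.83 and 1.47 for the G9a shRNAs, so this sign of RNA quality or labelling moved with the condition, and its part in the values that follow was not tested. For GAPDH the ratio ran from 1.12 to 1.15.

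A member was taken at its brightest probe set and kept when the highest of its 3 signals reached the median of all values, 11.96. Of the 49 members, 42 passed, and 32 of these were also past the 75th percentile. The G9a shRNA arrays lay closer to each other at higher signal. The difference of one G9a shRNA array from the other, in log2 units, had an SD of 0.24 over brighter genes, those past the 75th percentile, and of 0.87 over dimmer ones down to the median, spreads that can hold real differences between the shRNAs as well. They hold no error of the Luc shRNA array, which both changes share. A change larger than this SD is therefore not shown to exceed the noise of the control. The 7 members under the median on all 3 arrays were the ligands INHBE, BMP4 and BMP7, the antagonists FST, GREM1 and NOG, and the receptor BMPR1B, and no change is given for them at that probe set.

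Of the members past the filter, INHBA, GDF11, SMAD9 and LTBP2 were the furthest below the Luc shRNA array, and GDF15 was the member furthest above it. INHBA and GDF11 were more than 2-fold lower with both G9a shRNAs, though INHBA passed the filter only through the Luc shRNA array, where it was brightest. That is 2 of the 42 members, whereas 1.66% of the 13192 genes past the same filter were lower by this rule. No member was more than 2-fold higher with both, against 2.57% of all genes. When 1 shRNA past 2-fold was enough, if the other lay on its side, 4 members were lower (INHBA, GDF11, LTBP2 and SMAD9) against 5.59% of all genes, and 1 was higher (GDF15) against 5.26%. Among the 32 brighter members none was past 2-fold with both shRNAs, where 0.467% of the 8348 genes past the 75th percentile were lower and 0.611% higher. There SMAD9 was the 1 member lower with at least 1 shRNA and GDF15 the 1 member higher, against 2.01% and 1.71% of genes. Numbers this small do not set the members apart from all genes. As a list the members stayed near the Luc shRNA array. Their median log2 fold change was -0.05 with G9a shRNA1 and 0.11 with G9a shRNA2, beside 0.00 and 0.12 over all genes past the filter. Both shRNAs placed 18 members lower and 18 higher, and 6 had mixed signs. Over all genes 30.8% were lower and 44.0% higher with both. After quantile normalization, which takes 0.13 off the changes with G9a shRNA2 in brighter genes, 19 members were lower and 16 higher, and LTBP2 and SMAD9 joined INHBA and GDF11 past 2-fold with both.

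**Figure D1:**
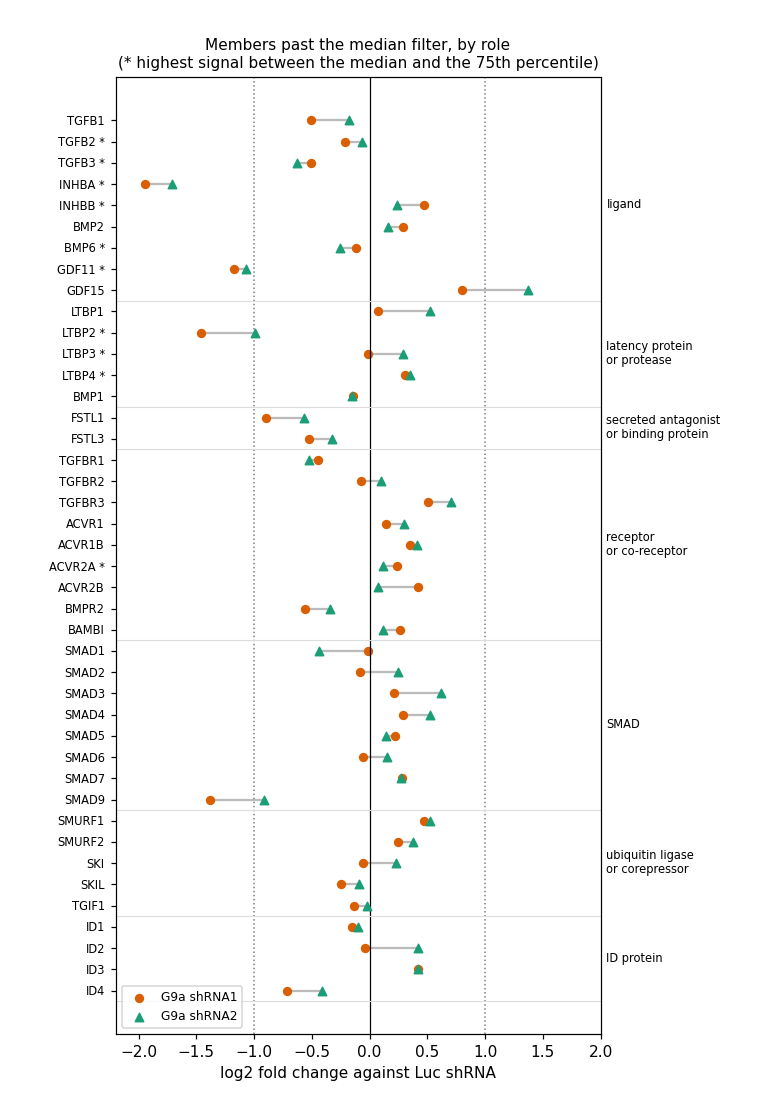
Change from Luc shRNA in log2 units (x axis) of the 42 members past the median filter, grouped by role (y axis), circles for G9a shRNA1 and triangles for G9a shRNA2, each 1 array; dotted lines mark 2-fold. INHBA and GDF11 lie past the line on the left with both shRNAs, LTBP2 and SMAD9 with G9a shRNA1 alone, and GDF15 lies past the line on the right with G9a shRNA2 alone.

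The promoters of these 5 genes are shown because they are the members past 2-fold with at least 1 shRNA, and G9a acts on chromatin. The RefSeq table (GRCh38.p14) held a window for 44 of the 50 members, and the 250 bases before the transcription start are printed for INHBA (chr7:41703091-41703340 on the minus strand), GDF11 (chr12:55742872-55743121 on the plus strand), GDF15 (chr19:18385908-18386157 on the plus strand), LTBP2 (chr14:74612238-74612487 on the minus strand) and SMAD9 (chr13:36920239-36920488 on the minus strand). Each is written 5′ to 3′ along the gene and capitals mark CpG dinucleotides.
INHBA: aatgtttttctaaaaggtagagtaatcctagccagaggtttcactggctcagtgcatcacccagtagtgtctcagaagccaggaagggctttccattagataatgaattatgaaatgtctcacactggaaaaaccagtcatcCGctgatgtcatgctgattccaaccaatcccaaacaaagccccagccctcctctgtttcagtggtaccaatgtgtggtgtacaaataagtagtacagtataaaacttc
GDF11: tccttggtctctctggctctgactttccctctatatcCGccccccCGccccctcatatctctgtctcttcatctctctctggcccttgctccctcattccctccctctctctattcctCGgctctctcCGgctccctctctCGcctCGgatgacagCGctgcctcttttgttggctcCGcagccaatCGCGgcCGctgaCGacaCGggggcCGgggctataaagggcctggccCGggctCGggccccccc
GDF15: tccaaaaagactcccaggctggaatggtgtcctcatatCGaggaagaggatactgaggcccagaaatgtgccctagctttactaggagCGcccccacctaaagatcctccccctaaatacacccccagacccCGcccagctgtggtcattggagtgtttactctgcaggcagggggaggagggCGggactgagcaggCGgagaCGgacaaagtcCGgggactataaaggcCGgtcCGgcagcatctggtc
LTBP2: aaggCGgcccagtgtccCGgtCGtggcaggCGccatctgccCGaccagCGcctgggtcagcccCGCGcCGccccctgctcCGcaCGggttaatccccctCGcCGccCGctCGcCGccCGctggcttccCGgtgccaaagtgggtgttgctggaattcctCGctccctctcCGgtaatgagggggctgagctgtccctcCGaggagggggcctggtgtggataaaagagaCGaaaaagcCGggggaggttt
SMAD9: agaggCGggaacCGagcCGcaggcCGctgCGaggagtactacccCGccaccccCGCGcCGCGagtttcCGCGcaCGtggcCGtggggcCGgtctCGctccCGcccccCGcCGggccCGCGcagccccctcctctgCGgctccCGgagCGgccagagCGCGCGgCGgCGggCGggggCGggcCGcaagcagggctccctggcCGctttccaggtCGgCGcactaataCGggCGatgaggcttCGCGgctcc
The INHBA sequence held 1 CpG and SMAD9 held 39, with 16 in GDF11, 23 in LTBP2 and 9 in GDF15. Of 35116 such windows in the table, which hold several starts for some genes, 14.7% had as few CpGs as INHBA or fewer, and 97.8% had as few as SMAD9 or fewer; the median was 11. The members past 2-fold thus ranged from CpG-poor to CpG-dense promoters. The SMAD-binding motif CAGAC, searched on both strands, was present in GDF15 and in none of the other 4, and 38.0% of all windows held it. The GC-rich SMAD motif GGCGCC was present in LTBP2 alone of the 5, and 16.4% of all windows held it. These matches describe the letters only.

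Among the ligands, INHBA encodes the βA subunit of activin A and inhibin A. It gave a signal of 32.4 on the control array, 8.40 under G9a shRNA1 and 9.90 under G9a shRNA2, and both G9a shRNA arrays were below the median of all values. The control was therefore 3.86-fold and 3.27-fold brighter, or log2 changes of -1.95 and -1.71, which become -1.44 and -1.44 when values under the median are raised to it. The other INHBA probe sets went the same way. One gave signals of 27.8, 9.35 and 3.94 (Luc shRNA, G9a shRNA1, G9a shRNA2) and the other 13.1, 3.40 and 7.15. All 3 were thus lower with both shRNAs, 2 of them past 2-fold with both. Each of the 3 passed the filter through the Luc shRNA array alone. With the floor the second gives -1.22 and -1.22, and the dimmest -0.13 and -0.13. INHBB, the βB subunit of activin B, had signals of 53.1, 73.4 and 62.6 in the same order, higher with both shRNAs by 0.47 and 0.24 on the log2 scale. The activin subunits therefore lay on opposite sides of the control array, INHBB by less than the spread at its level. GDF11, a ligand close to myostatin that signals through activin receptors, had signals of 62.6, 27.7 and 29.8, or log2 changes of -1.18 and -1.07. Its other probe sets past the filter were nearer to the control, with -0.62 and -0.35 at one and 0.05 and -0.25 at the other, so 1 of 3 was past 2-fold. With the mean of the 3 the changes of GDF11 were -0.58 and -0.56.

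GDF15, a stress-induced ligand of the GFRAL receptor, had signals of 273 on the control array, 476 under G9a shRNA1 and 707 under G9a shRNA2, 1.74-fold and 2.59-fold over the control. All 3 arrays were well above the 75th percentile, and the G9a shRNA arrays were both above the control. A dimmer GDF15 probe set gave 0.59 and -0.19, starting at 9.29 on the control array. The TGF-β isoforms themselves were lower with both shRNAs at their brightest probe sets, by less than 2-fold. TGFB1 had signals of 97.2, 68.2 and 86.0 (log2 fold changes of -0.51 and -0.18), and its second probe set gave -0.04 and -0.61. TGFB2 gave -0.21 and -0.07 at its brightest probe set, mixed signs at the next and 1.24 and 0.84 at another whose Luc shRNA signal, 8.27, was under the median. TGFB3 had signals of 13.3, 9.37 and 8.59, so close to the median that its changes of -0.50 and -0.63 shrink to -0.15 and -0.15 with the floor. At the brightest probe sets of the TGF-β isoforms the differences were within the SD between the G9a shRNA arrays at their level, except for TGFB1 with G9a shRNA1. BMP2, a bone morphogenetic protein, was higher with both shRNAs at both probe sets (0.29 and 0.16, and 0.64 and 0.34), and BMP6 gave -0.12 and -0.26.

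Of the extracellular partners, LTBP2, a matrix protein of the latent TGF-β binding family that itself does not bind TGF-β, was lower with signals of 42.1, 15.4 and 21.2, or log2 changes of -1.46 and -0.99. Its second probe set did not follow, with -0.25 and 0.30. The brightest LTBP1 probe set gave 0.08 and 0.52 and the next -0.65 and 0.24. LTBP3 had -0.01 and 0.29 at its brightest probe set, and its others gave 0.07 and 0.45, and -0.92 and -0.33. LTBP4 had 0.30 and 0.35 at its brightest probe set and -0.47 and 0.45 at its other past the filter. These proteins tether latent TGF-β to the matrix, and none of the 3 was past 1.5-fold at its brightest probe set. BMP1 is not a ligand but a metalloprotease that processes procollagen and frees ligands from chordin. It gave -0.14 and -0.16 at its brightest probe set, and its others past the filter gave -0.40 and 0.16, and -1.10 and -0.43.

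FSTL1, a secreted follistatin-like glycoprotein that binds several ligands of the family, was among the brightest of the lower members. It gave a signal of 1795 on the control array, 966 under G9a shRNA1 and 1211 under G9a shRNA2, or log2 changes of -0.89 and -0.57. The other FSTL1 probe sets gave -1.45 and -1.12, and -1.05 and -0.78, so that all 3 were lower with both shRNAs and 1 was past 2-fold with both. FSTL3, which traps activin and myostatin, had signals of 146, 101 and 116, changes of -0.53 and -0.33. FSTL1 and FSTL3 were thus lower with both shRNAs. Their changes were larger than the SD of 0.24 between the G9a shRNA arrays at this level, which holds no error of the control array.

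None of the receptors past the filter was past 2-fold with either shRNA at its brightest probe set. TGFBR1, the type I receptor of TGF-β, had signals of 449.8, 330.5 and 313, changes of -0.44 and -0.52. Its other probe set past the filter gave -0.09 and -0.52. That one passed through its Luc shRNA signal of 12.4 alone, and its changes become -0.05 and -0.05 with the floor. TGFBR2, the type II receptor, was level at 511, 485 and 547. TGFBR3, or betaglycan, a co-receptor that presents TGF-β2 and also serves inhibin, was the receptor furthest above the control. It had signals of 86.1, 123 and 140.4, changes of 0.51 and 0.71, and a second probe set gave 0.18 and 0.56. The activin type I receptor ACVR1B gave 0.35 and 0.41, starting at 425 on the control array, and all 4 of its probe sets past the filter were higher with both shRNAs, the 2 dimmest of them from Luc shRNA signals of 11.8 and 3.29. ACVR1, a type I receptor of BMPs and activins, gave 0.14 and 0.30. ACVR2A gave 0.23 and 0.11 and ACVR2B 0.42 and 0.07, type II receptors that lose their shared side after quantile normalization, as does the decoy receptor BAMBI (0.27 and 0.12). The other ACVR2A probe set, starting at 38.6 on the control array, went the other way with -0.48 and -0.16. BMPR2, the type II receptor of BMPs, had signals of 222, 150.4 and 175, changes of -0.56 and -0.34, and 4 of its 5 probe sets past the filter were lower with both shRNAs. In bulk RNA, fewer cells that carry a transcript and less of it per cell cannot be told apart.

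The SMADs were all past the 75th percentile. SMAD9, also known as SMAD8, is one of the SMADs that BMP receptors activate. It had signals of 184 on the control array, 70.7 under G9a shRNA1 and 97.8 under G9a shRNA2, which makes the control 2.61-fold and 1.89-fold brighter. Both G9a shRNA arrays were below the control by more than the spread at this level, and the log2 fold changes were -1.38 and -0.91. Its second probe set was under the median on all 3 arrays. Neither of the other BMP SMADs was past 1.5-fold at its brightest probe set. SMAD1 gave -0.01 and -0.44 at its brightest probe set and -0.03 and 0.18 at the next. SMAD5 had signals of 542, 632 and 597, changes of 0.22 and 0.14, with -0.15 and -0.06 at a probe set of like brightness. Of its 5 probe sets past the filter, 4 were higher with both shRNAs, the dimmest by 0.76 and 0.76. SMAD3, which carries TGF-β and activin signals, was higher with signals of 231, 268 and 356, changes of 0.22 and 0.62. Its other probe sets gave 0.41 and 0.82, 0.37 and 0.25, and 0.87 and 0.15, so all 4 were higher with both shRNAs. The last of these passed the filter through its G9a shRNA1 signal of 14.9 alone, and with the floor it gives 0.31 and 0. SMAD2, a close relative of SMAD3, gave -0.08 and 0.25, but one of its bright probe sets gave -0.73 and -0.61, so its 6 probe sets disagree. SMAD4, the shared partner, gave 0.29 and 0.53, starting at 395 on the control array, and -0.11 and -0.13 at its next probe set. Of its 4 probe sets past the filter, 3 were higher with both shRNAs, among them dim ones with Luc shRNA signals of 12.5 and 17.4. Of the inhibitory SMADs, SMAD7 gave 0.28 and 0.27, slightly past the SD of 0.24 at this level, and 0.29 and 0.14 after quantile normalization. SMAD6 was nearly level at its brightest probe set, with -0.06 and 0.15. Its second probe set past the filter, at 13.8 on the control array, gave -0.03 and -1.01, or -0.03 and -0.20 with the floor.

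Regulators downstream of the SMADs stayed within 1.5-fold of the control at their brightest probe sets. SMURF2, a ubiquitin ligase for receptors and SMADs, had signals of 680.5, 809 and 883, and all 4 of its probe sets were higher with both shRNAs. SMURF1 gave 0.47 and 0.52 at its brightest probe set, whereas a dimmer one gave -1.47 and -0.67 and the others past the filter had mixed signs. Of the nuclear corepressors, SKI gave -0.06 and 0.23, SKIL gave -0.25 and -0.09, and TGIF1 gave -0.13 and -0.02. SKIL was lower with both shRNAs at all 3 of its probe sets past the filter.

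The ID genes encode helix-loop-helix proteins that block basic helix-loop-helix factors and are classic targets of BMP signaling. The ID members lay on both sides of the control. ID4 had signals of 409.8 on the control array, 249 under G9a shRNA1 and 309 under G9a shRNA2, changes of -0.72 and -0.41. Its other probe sets past the filter gave -0.76 and -0.46, -1.07 and -1.04, and -1.22 and -0.64, so that 4 of 4 were lower with both shRNAs and 1 was past 2-fold with both. ID3 was higher, with 685, 917 and 916, changes of 0.42 and 0.42. ID2 gave -0.04 and 0.42 at its brightest probe set and 0.37 and 0.83 at the other. ID1, with signals of 4256, 3825 and 3969.8, was nearly level at -0.15 and -0.10. Over all members with 2 or more probe sets past the filter, 32 genes, every such probe set was lower with both shRNAs in 6 (TGFB1, INHBA, FSTL1, TGFBR1, SKIL and ID4) and higher in 6 (BMP2, TGFBR3, ACVR1B, ACVR2B, SMAD3 and SMURF2), and in 20 they were mixed. Some of these probe sets passed the filter through 1 array alone, those of INHBA, TGFBR1 and SMAD3 among them. The same shares over all genes were not computed, so these counts do not set the members apart.

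Target genes of TGF-β outside the members were described from a list of 32, of which 28 were measured and 24 passed the filter. Of these 24, 1 was more than 2-fold lower with both shRNAs, 2 were higher, beside the 1.66% and 2.57% of all genes, and their median log2 fold change was -0.10 with G9a shRNA1 and 0.10 with G9a shRNA2. The one lower was COL1A1, a fibrillar collagen, with signals of 200.1, 55.2 and 58.8. The other COL1A1 probe sets past the filter were lower with both shRNAs, at -0.70 and -0.13, and at -1.58 and -0.64. TAGLN, which encodes the actin-binding protein transgelin, was higher with signals of 39.0, 125 and 85.1, and its dimmest probe set gave -0.36 and -0.63. SNAI2, a repressor of epithelial genes, was higher with signals of 55.6, 129.8 and 132. EDN1, the vasoconstrictor endothelin 1, had 354, 179 and 148, lower at all 3 of its probe sets, and the collagen crosslinker LOXL2 gave -0.84 and -0.54. MYC, which TGF-β represses in many epithelial cells, gave 0.71 and 0.46. Targets that TGF-β is known to induce thus lay on both sides of the control. Both shRNAs placed 10 of the 24 lower and 11 higher.

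Of 67 further components of the pathway, 61 were measured and 39 passed the filter. Of these 39, 2 were more than 2-fold lower with both shRNAs (HTRA1 and CHRDL2), none was higher, beside the same 1.66% and 2.57% of all genes, and the medians were -0.02 and 0.07. HTRA1, a secreted serine protease known to bind ligands of the TGF-β family, had signals of 157 on the control array, 27.98 under G9a shRNA1 and 64.7 under G9a shRNA2, or log2 changes of -2.49 and -1.28. CHRDL2, a chordin-like BMP antagonist, had a Luc shRNA signal of 12.9, near the median, and its changes of -2.01 and -1.03 become -0.11 and -0.11 with the floor. NEDD4L, a ubiquitin ligase that acts on activated SMAD2 and SMAD3, was higher with 499, 912 and 915, changes of 0.87 and 0.88. DAB2, an endocytic adaptor that binds SMADs, had 102, 46.9 and 78.2, changes of -1.12 and -0.38. Changes of RGMB, a BMP co-receptor, were 0.33 and 0.65, those of NBL1, a BMP antagonist, 0.32 and 0.63, and those of LEMD3, a nuclear envelope protein that binds SMADs, 0.31 and 0.31.

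When the G9a shRNA arrays were taken as 1 group and the lone control array was assumed to vary like them, limma called 3 of the 42 members at an adjusted p under 0.05, FSTL1 and SMAD9 lower and GDF15 higher, where 1.57% of all genes were called lower and 2.30% higher. Its p-values rest on the difference between 2 hairpins and on no measure of the spread of the control, so these calls describe the 3 arrays and are no replicated test of the knockdown. INHBA and GDF11, past 2-fold with both shRNAs, were not among the 3.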

How the data were processed

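The sources name MAS5 for the signals the authors deposited, linear intensities from Human Genome U133 Plus 2.0 arrays, with 54675 probe sets and no version, settings or scaling target given in the sources used here. No signal was at or under 0, and the 2% trimmed means of the 3 arrays ran from 105 to 115. The deposited values were left as they are, and each G9a shRNA array was divided by the control array and put on the log2 scale. Probe sets were named through Entrez identifiers: 41097 had 1 symbol, 1801 several and 11777 none, while 42 identifiers were not found among the RefSeq genes. Each gene was represented by the probe set that was brightest on average (mean of log2). Members, lists and rules were chosen with earlier results of these data known. EHMT2 came first, every member was accounted for, signals were given for members past 1.5-fold with at least 1 shRNA and on the same side with the other and for a range of receptors and SMADs, and up to 6 genes past the 75th percentile were named per further list. The alternatives were other filters, median centring, a floor set at the median of all values, quantile normalization, the mean over probe sets, thresholds of 1.5-fold and 3-fold, each shRNA alone and limma 3.58.1 (R 4.3.3). The steps were tested on simulated data. Scripts ran in Python 3.11.15 with pandas 2.3.3, numpy 2.4.6, matplotlib 3.10.9 and scipy 1.17.1.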

Additional observations from a re-analysis of the deposited data

Results flagged for a closer look

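Among the probe sets of members past the median filter, there were 3 dim ones at which the G9a shRNA arrays lay on opposite sides of the Luc shRNA array, past 2-fold with at least 1 of them, and the difference between the shRNAs was not tested. For FST the signals were 3.03 on the control array, 14.0 under G9a shRNA1 and 1.17 under G9a shRNA2, a difference of 3.58 on the log2 scale between the shRNAs. Once signals below the median of all values, 11.96, are raised to that level, its changes from the control become 0.23 and 0.00. For SMURF1 they were 26.4, 4.10 and 37.3, a difference of -3.18, and the raised values give -1.14 and 0.50. For TGFBR2 they were 13.4, 5.53 and 16.5, a difference of -1.58, and the raised values give -0.16 and 0.30. The highest signal of each was under the 75th percentile of all values, and the brightest probe sets of SMURF1 and TGFBR2 were within 1.5-fold of the control.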

How the results depend on the processing

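No paired analysis was possible because each condition has 1 array. Of the 10 members past 1.5-fold with at least 1 shRNA and on the same side with the other, all 10 kept the direction of their mean change with the floor, median centring, quantile normalization and the mean over probe sets. These members were picked for their size in the same values, so this says little. A floor cannot turn a sign, median centring moved each mean by -0.04, and quantile normalization by -0.09 to -0.01. Only the mean over probe sets could readily have turned one. Counts are listed here where they differed from the main count by a factor of more than 1.5, or where only one of them was 0. Smaller differences are left out, such as 3 members lower with both shRNAs after median centring. The 2 members lower with both shRNAs became 0 with the filter at the 75th percentile, 4 after quantile normalization, 1 with the mean over probe sets, 4 at 1.5-fold, 1 at 3-fold and 4 with G9a shRNA1 alone. The 0 members higher with both became 1 at 1.5-fold, 1 with G9a shRNA2 alone and 1 with limma. With at least 1 shRNA, the 4 lower members became 1 with the filter at the 75th percentile, 7 at 1.5-fold and 1 at 3-fold, and the 1 higher member became 2 with no filter, 3 at 1.5-fold and 0 at 3-fold. The 1 TGF-β target lower with both became 2 after median centring, 3 at 1.5-fold, 2 with G9a shRNA1 alone, 3 with G9a shRNA2 alone and 3 with limma, and the 2 higher targets became 1 after quantile normalization, 1 with the mean over probe sets and 0 at 3-fold. The 2 other components lower with both became 4 with no filter, 1 with the filter at the 75th percentile, 1 with the filter on the mean, 1 with the floor, 0 at 3-fold, 5 with G9a shRNA1 alone and 1 with limma, and the 0 higher ones became 4 with no filter, 3 at 1.5-fold, 1 with G9a shRNA1 alone, 1 with G9a shRNA2 alone and 1 with limma. Filters and thresholds change which genes can be counted; for the other settings the cause was not tested. Values at low signal differed more between the G9a shRNA arrays, which lay over 2-fold apart in 14.3% of genes from the median up to the 75th percentile and in 0.407% of genes above it, shares that can hold real differences between the shRNAs.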
